A study of Mus musculus with 9 samples.

Results

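The nuclear genes for subunits of the mitochondrial respiratory chain and ATP synthase were followed in bone marrow stromal cells during leukemia. A gene counted as a member when its symbol started with Ndufa, Ndufb, Ndufc, Ndufs, Ndufv, Uqcr, Atp5 or Cox followed by a digit of the nuclear-coded cytochrome c oxidase subunits, or was Sdha, Sdhb, Sdhc, Sdhd or Cyc1. Assembly factors of the Ndufaf series and pseudogenes were left out. Symbols alone chose the members, and of 18194 genes with a probe set annotated to a single symbol 83 qualified. They comprised 36 genes of complex I, 4 of complex II, 9 of complex III, 17 of complex IV and 17 of complex V (ATP synthase). A further 6 matching symbols occurred only on probe sets shared by several genes and were not used.

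The cells came from the marrow of FVB/NJ mice and had been sorted to lack CD45.1, found on leukocytes of mice that carry this CD45 allele, and Ter119, found on erythroid cells. Which CD45 allele the hosts and the leukemic cells carry is not given in the sources used here, so the leukocytes that the sort left in cannot be told. Their RNA was hybridised to Affymetrix arrays of mouse genes. The groups were wild type mice (WT), leukemic recipients in an early phase of 1 to 5% leukemic cells in the marrow (E), and leukemic recipients in a medium phase of 5 to 50% (M), with 3 arrays each that the labels call biological replicates. How the leukemia was started and whether animals were pooled is not given in the sources used here. Recipients of the latent and late phases were not analysed here. The series set out to follow the expression of stromal cells stepwise as leukemia advances.

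The respiratory chain passes electrons from NADH, through complex I, and from succinate, through complex II, to ubiquinone, on through complex III and cytochrome c to complex IV, where oxygen is reduced. Complexes I, III and IV pump protons across the inner mitochondrial membrane, and ATP synthase lets them flow back to make ATP. Most subunits are coded in the nucleus and have to be built together with a few coded in mitochondrial DNA, and mesenchymal cells of the marrow are known for a large contribution of glycolysis to their energy supply.

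Genes of the respiratory chain are known for promoters with sites of NRF1, of ETS factors such as GABP, and of YY1. One promoter per complex is shown, from 250 bases before to 50 bases after the RefSeq transcription start (build GRCm38.p6), because each belongs to one of the 3 members of its complex with the smallest F test p over the groups and holds the most kinds of these motifs among those 3. Capitals mark GCGCATGC (a core of the NRF1 site), CCGGAAG (the ETS and GABP core) or AAGATGGC (the YY1 core), searched on both strands, and no marked motif overlapped another.
Ndufa3 (complex I, chr7:3617123-3617422, plus strand): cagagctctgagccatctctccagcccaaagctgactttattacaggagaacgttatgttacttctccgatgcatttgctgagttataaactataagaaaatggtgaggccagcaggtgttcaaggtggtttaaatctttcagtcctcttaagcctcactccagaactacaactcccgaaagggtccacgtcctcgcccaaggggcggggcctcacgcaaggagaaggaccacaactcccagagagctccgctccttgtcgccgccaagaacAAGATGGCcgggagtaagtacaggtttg
Sdhb (complex II, chr4:140961021-140961320, plus strand): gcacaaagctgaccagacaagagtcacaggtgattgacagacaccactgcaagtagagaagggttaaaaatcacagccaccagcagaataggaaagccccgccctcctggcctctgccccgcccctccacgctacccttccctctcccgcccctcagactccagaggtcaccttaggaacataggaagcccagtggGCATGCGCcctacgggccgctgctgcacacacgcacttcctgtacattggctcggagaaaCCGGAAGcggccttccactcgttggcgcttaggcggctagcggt
Uqcr11 (complex III, chr10:80406772-80407071, minus strand): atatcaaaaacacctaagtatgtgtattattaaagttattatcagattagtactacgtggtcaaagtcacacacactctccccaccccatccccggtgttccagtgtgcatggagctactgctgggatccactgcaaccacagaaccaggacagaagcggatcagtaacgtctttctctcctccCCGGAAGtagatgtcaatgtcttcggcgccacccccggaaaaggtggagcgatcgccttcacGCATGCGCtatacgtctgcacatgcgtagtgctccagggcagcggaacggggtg
Cox8a (complex IV, chr19:7217567-7217866, minus strand): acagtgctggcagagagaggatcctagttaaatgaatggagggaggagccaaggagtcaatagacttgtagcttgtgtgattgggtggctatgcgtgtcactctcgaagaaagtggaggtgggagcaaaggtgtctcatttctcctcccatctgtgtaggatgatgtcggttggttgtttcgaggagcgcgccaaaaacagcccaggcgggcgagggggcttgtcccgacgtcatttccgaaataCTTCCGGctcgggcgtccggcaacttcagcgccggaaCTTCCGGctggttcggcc
Atp5l (complex V, chr9:44920693-44920992, minus strand): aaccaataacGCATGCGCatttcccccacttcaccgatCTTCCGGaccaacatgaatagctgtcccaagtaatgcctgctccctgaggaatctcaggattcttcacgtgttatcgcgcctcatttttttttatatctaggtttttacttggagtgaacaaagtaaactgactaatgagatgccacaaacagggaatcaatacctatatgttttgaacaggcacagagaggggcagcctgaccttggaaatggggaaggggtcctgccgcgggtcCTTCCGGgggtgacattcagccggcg

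Of the 83 members, 67 had a RefSeq promoter, with 72 promoters in all. The NRF1 core occurred in 12.5% of these, against 5.79% of 9584 promoters of genes tested and 2.71% of all 32851 promoters in the table. The ETS core occurred in 23.6%, against 19.6% of promoters of genes tested and 8.86% of all promoters. For the YY1 core the shares were 12.5% of member promoters, 4.99% of promoters of genes tested and 2.75% of all promoters. A match describes the letters and is no evidence that a factor binds there.

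Values are log2 MAS5 signals, so a difference of -1 is a halving of the signal, and each array had been scaled by the authors to the same trimmed mean. Of the 18194 genes, the 9097 with a mean over the 9 arrays at or above the median (6.83) were tested with limma, and a gene was called at a Benjamini-Hochberg adjusted p under 0.05 over these 9097. Among the members 76 passed this filter on brightness, and the 7 below it were Ndufa4l2, Ndufb4, Cox4i2, Cox6a2, Cox7a1, Cox7b2 and Cox8b. The member nearest above the threshold was Cox8c, at a mean of 7.37, and the nearest below it was Cox6a2, at 6.48. Members were measured closely: the median SD within groups was 0.07 over the 76 members, 0.09 over the 1255 genes with a mean of 12 or more, and 0.14 over all genes tested.

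The M arrays stood apart from the others in ways that touch every result below. Poly-A control RNAs added before labelling (12 probe sets) averaged 10.12 ± 0.29 in M, against 9.11 ± 0.17 in WT (SD, n = 3 each). They were 2.015-fold higher in M (exact permutation test, two-sided, p = 0.1, the smallest that 3 against 3 arrays allow), and averaged 9.10 ± 0.09 in E. Summed linear signals of 14 mesenchymal marker genes ranged from 6423 to 6982 in WT, 7370 to 7998 in E and 96567 to 124076 in M. The mean log2 signal of these markers, of the cell type that the label names, was 7.71 in WT and 7.76 in E, not far above the median of all genes, and 11.87 in M. Summed signals of 11 granulocyte markers ranged from 9996 to 11076 in WT, 13956 to 15230 in E and 119198 to 139739 in M. Sums of 11 erythroid markers ranged from 77753 to 86758 in WT, 69357 to 73377 in E and 44958 to 87794 in M. In mean log2 signal the erythroid markers, of the lineage that the sort was to remove, stood at 11.27, 11.49 and 11.37 on the WT arrays, 11.14, 10.98 and 11.06 on the E arrays and 11.61, 11.79 and 10.69 on the M arrays. M replicate 3 was the lowest of the 9 and the other two M arrays the highest. Without M replicate 3 the count of members lower in M against WT was 69 of 76 and their median -0.42. In bulk RNA of this kind, fewer cells of a type and less RNA per cell cannot be told apart.

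Nearly all respiratory subunits were lower in the medium phase. In M against WT 70 of 76 members fell and 0 rose, whereas 43.5% of all genes tested fell and 25.3% rose, so that 68.8% were called in one direction or the other. The median member had a log2 difference of -0.45 (73.2% of the WT signal), beside -0.19 for all genes tested. Of the 1255 genes as bright as most members, with a mean of 12 or more, 67.9% fell, with a median of -0.34. The arrays of M lay wholly below those of WT for 70 members, against 45.5% of all genes tested.

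The same held against the early phase: in M against E 73 of 76 members fell and 0 rose, beside 43.9% and 26.1% of all genes tested (70.0% called). The median member was at 67.95% of its E signal, a log2 difference of -0.56, beside -0.19 for all genes tested, and 69.7% of genes with a mean of 12 or more fell. An F test over the 3 groups called 73 of 76 members, beside 70.2% of all genes tested. The comparisons with M share the M arrays and those with WT share the WT arrays, so they are not independent of each other.

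Per array, the median member deviated from its WT mean by -0.03, -0.03 and 0.05 in WT, by 0.05, 0.11 and 0.10 in E, and by -0.40, -0.43 and -0.51 in M. The 3 M arrays were alike in this, and none came near the WT or E arrays. Subunits held 4.18 to 4.38% of the summed linear signal of genes tested in WT, 4.38 to 4.48% in E and 3.23 to 3.45% in M.

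**Figure D1:**
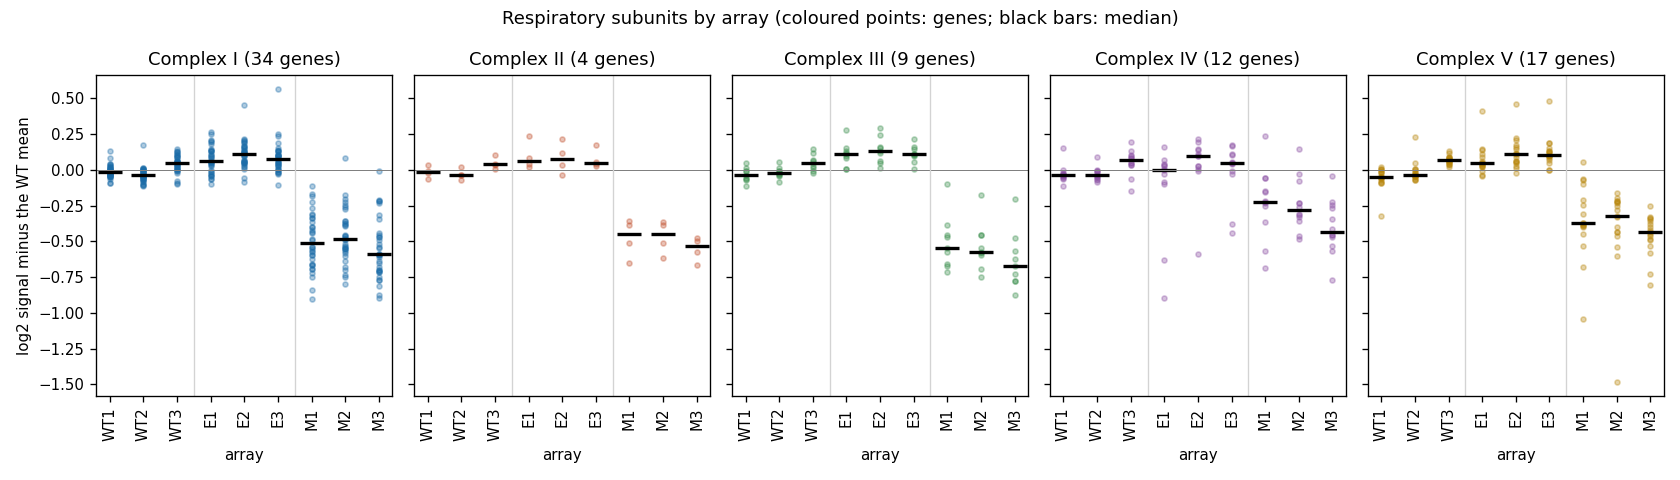
Log2 signal of each tested subunit gene minus its WT mean (vertical axis) on each of the 9 arrays (horizontal axis), with a panel for each complex. Coloured points are genes and black bars their median. The complex I median lies between -0.04 and 0.05 on the WT arrays, between 0.06 and 0.11 on the E arrays and between -0.59 and -0.48 on the M arrays.

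Complex I, the NADH dehydrogenase and the largest of the complexes, fell in 33 of 34 tested subunits in M against WT (median -0.55). In M against E 34 of 34 fell (median -0.65). Of all genes tested 43.5% fell in M against WT and 43.9% in M against E. Of those with a mean of 12 or more 67.9% and 69.7% fell, with medians of -0.34 and -0.37. The 6 measured core subunits, which form the peripheral arm with its redox centres, all fell, with a median of -0.62, and 27 of 28 accessory subunits fell, with a median of -0.52. Ndufs1, the largest subunit, which carries iron-sulfur clusters, read 12.73, 12.65 and 12.77 on the WT arrays, 12.69, 12.63 and 12.61 on the E arrays and 11.97, 12.03 and 11.95 on the M arrays. All M arrays lay below all others, while E and WT overlapped. Ndufs1 differed by -0.73 (SE 0.06, adjusted p = 1.25e-06) in M against WT, which is 60.2% of the WT signal. Ndufv1, which binds NADH and flavin mononucleotide, read 12.16, 12.18 and 11.98 in M, against 12.65, 12.71 and 12.74 in WT. Ndufv1 differed by -0.59 (SE 0.07, adjusted p = 1.47e-05) in M against WT.

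The accessory subunit Ndufa5, part of the peripheral arm, had the smallest p of all members in M against WT. It read 12.96, 12.88 and 12.91 in WT, 13.12, 13.12 and 13.15 in E and 12.23, 12.17 and 12.15 in M. The groups did not overlap, with E highest and M lowest. Its log2 difference was -0.74 (SE 0.05, adjusted p = 6.38e-07) in M against WT and in M against E it was -0.95 (SE 0.05, adjusted p = 6.61e-08). Ndufa3, an accessory subunit of the membrane arm, read 13.10, 13.13 and 13.21 in WT, 13.24, 13.26 and 13.24 in E and 12.59, 12.60 and 12.56 in M. The M arrays were again below all others. Ndufa3 differed by -0.56 (SE 0.05, adjusted p = 4.62e-06) in M against WT.

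Ndufb1, a small accessory subunit of the membrane arm, had the largest fall within complex I in M against WT. It read 9.24, 9.28 and 9.38 in M, against 10.21, 10.05 and 9.98 in WT. Ndufb1 differed by -0.78 (SE 0.09, adjusted p = 1.48e-05) in M against WT, which is 58.2% of the WT signal. Ndufa4, named as a complex I subunit but since assigned to complex IV, read 13.45, 13.40 and 13.32 in M, against 13.76, 13.73 and 13.88 in WT. Ndufa4 differed by -0.40 (SE 0.06, adjusted p = 0.000176) in M against WT. The only tested member of complex I that was not called was Ndufs5, named after its values were seen. Its probe set was dim, at 8.07, 8.56 and 8.46 in M and 8.38, 8.65 and 8.39 in WT. The arrays overlapped, and the difference was -0.11 (SE 0.15, adjusted p = 0.543).

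Complex II, succinate dehydrogenase, takes part in both the respiratory chain and the tricarboxylic acid (TCA) cycle. All 4 of its subunits fell in M against WT (median -0.47) and in M against E (median -0.51). In these comparisons 43.5% and 43.9% of all genes tested fell. Among those with a mean of 12 or more 67.9% and 69.7% fell, with medians of -0.34 and -0.37. The flavoprotein Sdha, which oxidises succinate, read 12.57, 12.60 and 12.74 in WT, 12.66, 12.67 and 12.66 in E and 12.13, 12.25 and 12.06 in M. Sdha differed by -0.49 (SE 0.07, adjusted p = 8.81e-05) in M against WT. The iron-sulfur subunit Sdhb, whose promoter is printed above, read 13.35, 13.32 and 13.39 in WT, 13.44, 13.47 and 13.41 in E and 12.97, 12.99 and 12.88 in M. Sdhb differed by -0.41 (SE 0.06, adjusted p = 6.57e-05) in M against WT. In both genes every M array was below every WT and E array. The membrane anchor Sdhd had the largest difference of the complex. It read 12.84, 12.88 and 12.87 in WT, 13.10, 13.08 and 13.04 in E and 12.21, 12.25 and 12.20 in M. Sdhd differed by -0.64 (SE 0.05, adjusted p = 1.46e-06) in M against WT, and for M against E the difference was -0.85 (SE 0.05, adjusted p = 1.24e-07). Its 3 groups did not overlap. The other anchor, Sdhc, lay within the range of the complex, from -0.64 for Sdhd to -0.41 for Sdhb.

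Complex III, cytochrome bc1, fell in 9 of 9 subunits in both comparisons with M, with medians of -0.55 against WT and -0.75 against E. The shares that fell were 43.5% and 43.9% of all genes tested. They were 67.9% and 69.7% of those with a mean of 12 or more, with medians of -0.34 and -0.37. The structural core protein Uqcrc1 read 12.62, 12.73 and 12.85 in WT, 12.81, 12.80 and 12.95 in E and 12.08, 12.04 and 11.95 in M. Uqcrc1 differed by -0.71 (SE 0.07, adjusted p = 1.03e-05) in M against WT. Cyc1, cytochrome c1, which hands electrons to cytochrome c, read 13.53, 13.64 and 13.60 in WT, 13.70, 13.72 and 13.75 in E and 13.01, 13.01 and 12.81 in M. Cyc1 differed by -0.65 (SE 0.07, adjusted p = 8.07e-06) in M against WT. The M arrays of both genes were the 3 lowest of the 9. Uqcrfs1, the Rieske iron-sulfur protein, read 12.91, 12.84 and 12.56 in M, against 13.22, 13.31 and 13.36 in WT. The spread was wider here, and the difference was -0.53 (SE 0.09, adjusted p = 0.000406).

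The small subunits of complex III spanned the range of the complex. Uqcr11, a very small subunit whose promoter is printed above, read 13.52, 13.52 and 13.62 in WT, 13.67, 13.71 and 13.66 in E and 12.88, 12.81 and 12.68 in M. Uqcr11 differed by -0.77 (SE 0.06, adjusted p = 1.75e-06) in M against WT, which is 58.8% of the WT signal. Uqcr10 read 12.72, 12.70 and 12.75 in WT, 12.82, 12.96 and 12.83 in E and 12.01, 12.13 and 12.05 in M. Uqcr10 differed by -0.66 (SE 0.06, adjusted p = 4.54e-06) in M against WT. For both, no M array came within the range of the other arrays. At the other end stood Uqcrb, named after its values were seen, at a mean of 14.62 in M, against 14.78 in WT. Uqcrb differed by -0.16 (SE 0.05, adjusted p = 0.0186) in M against WT.

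**Figure D2:**
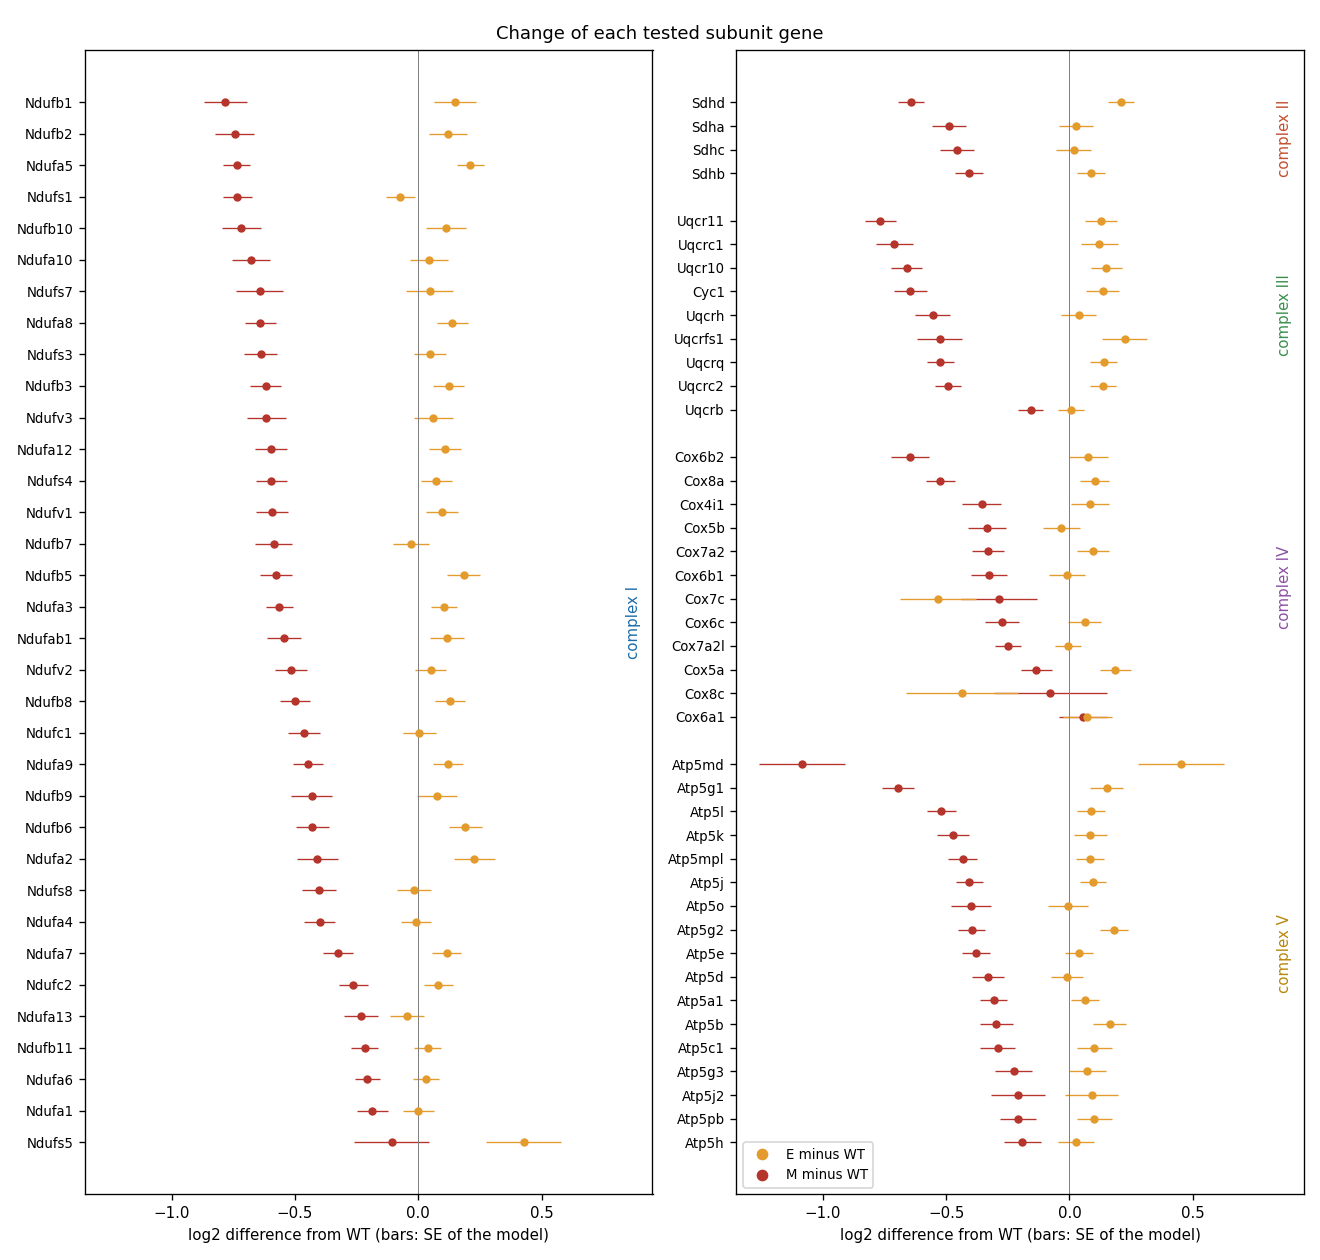
Log2 difference from WT (horizontal axis) of each of the 76 tested subunit genes, in E (orange) and in M (red), with the SE of the limma fit as bars, grouped by complex and sorted by the difference in M. The M points lie left of 0 for 75 genes, with Cox6a1 as the exception, and the E points lie right of 0 for 64.

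Complex IV, cytochrome c oxidase, fell in 8 of 12 tested subunits in M against WT (median -0.31) and in 9 of 12 in M against E (median -0.32). These shares are near those of genes with a mean of 12 or more, of which 67.9% fell in M against WT (median -0.34) and 69.7% in M against E. Cox4i1, the common isoform of a subunit through which ATP regulates the enzyme, read 14.29, 14.29 and 14.44 in WT, 14.35, 14.54 and 14.39 in E and 13.98, 14.11 and 13.87 in M. Cox4i1 differed by -0.36 (SE 0.08, adjusted p = 0.00182) in M against WT. Cox6b1, the common isoform of a subunit at the interface of the monomers, read 14.35, 14.26 and 14.12 in M, against 14.51, 14.53 and 14.67 in WT. Cox6b1 differed by -0.33 (SE 0.07, adjusted p = 0.0021) in M against WT. Cox7a2 is the common isoform of a subunit involved in dimers and supercomplexes, and it read 14.40, 14.27 and 14.22 in M, against 14.61, 14.57 and 14.71 in WT. Cox7a2 differed by -0.33 (SE 0.07, adjusted p = 0.000947) in M against WT. In these 3 genes every M array was below every WT array. Cox8a, whose promoter is printed above, had a larger difference. It read 13.26, 13.27 and 13.34 in WT, 13.33, 13.38 and 13.46 in E and 12.72, 12.82 and 12.75 in M. Cox8a differed by -0.52 (SE 0.06, adjusted p = 1.63e-05) in M against WT.

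The tested members of complex IV that were not called in M against WT were Cox5a, Cox6a1, Cox7c and Cox8c, the last 2 named after their values were seen. Cox5a read 14.57, 14.60 and 14.64 in WT, 14.77, 14.82 and 14.78 in E and 14.55, 14.52 and 14.34 in M. Its M arrays lay below the WT arrays, but the difference of -0.14 (SE 0.06, adjusted p = 0.0755) missed the threshold, and in M against E it fell (-0.32, SE 0.06, adjusted p = 0.000849). Both other probe sets of Cox5a, with means of 14.15 and 14.12, lay wholly below WT in M, by -0.24 and -0.42. Cox5a was called lower in M against WT with the mean of its probe sets (-0.27, adjusted p = 0.00392) and without M replicate 1 (-0.17, adjusted p = 0.0355). Centring each array on its median or scaling on the spike-ins, which lower all M values, also gave calls (-0.76 and -1.15). The difference was smaller and not called without M replicate 3 (-0.07, adjusted p = 0.204) or under quantile normalization (-0.07, adjusted p = 0.237). Cox6a1, the common isoform of a subunit whose partner is restricted to muscle, read 14.69, 14.43 and 14.42 in M, against 14.34, 14.38 and 14.66 in WT. The arrays overlapped, with a difference of 0.05 (SE 0.10, adjusted p = 0.637). A dimmer probe set for Cox6a1, with a mean of 13.57, gave -0.35 in M against WT with no overlap, so the 2 probe sets of this gene disagree. For Cox7c the probe set used was dim, at 8.59, 8.41 and 8.07 in M and 8.80, 8.63 and 8.50 in WT (-0.29, SE 0.15, adjusted p = 0.119). Cox8c, an isoform known from testis, read 7.38, 7.69 and 7.31 in M and 7.51, 7.63 and 7.47 in WT (-0.08, SE 0.23, adjusted p = 0.777).

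Isoforms of complex IV and of Ndufa4 that are restricted to a tissue or induced by low oxygen were mostly below the brightness filter and so not among the 9097 genes tested. A fit without that filter took them in, and it called Cox8b in M against WT (adjusted p = 0.0491) and Cox6a2 in M against E (adjusted p = 0.0439), both higher in M. Of all 18194 genes that fit called 7880 in M against WT and 8274 in M against E, in either direction. The medians over all these genes were 0.11 and 0.19. Cox4i2, known from lung and induced by low oxygen, read 5.65, 4.67 and 4.33 in WT, 4.74, 5.48 and 2.22 in E and 5.02, 5.80 and 3.11 in M. The groups overlapped. Ndufa4l2, induced by low oxygen through HIF, read 5.47, 4.13 and 4.32 in WT, 3.01, 5.99 and 3.78 in E and 3.68, 5.78 and 6.92 in M, and these groups overlapped as well. The heart and muscle isoform Cox6a2 read 6.66, 7.12 and 6.82 in M, against 6.43, 6.34 and 6.50 in WT. Cox7a1, also an isoform of heart and muscle, read 5.76, 5.64 and 6.16 in M, against 5.24, 4.50 and 4.85 in WT. Both were higher on all M arrays than on all WT arrays, at signals near or under the threshold. The same was seen for 26.5% of the 9097 genes tested, to which neither belongs. Cox8b, an isoform of rodent heart, muscle and brown fat, read 0.66, 2.80 and 2.98 in WT, 2.01, 4.40 and 5.24 in E and 5.60, 3.70 and 4.90 in M, all far under the threshold. Cox6b2, an isoform known from testis, was the exception in brightness. It read 11.73, 11.69 and 11.77 in WT, 11.80, 11.85 and 11.78 in E and 11.05, 11.25 and 10.96 in M. Like the common subunits it fell in M against WT, by a difference of -0.65 (SE 0.08, adjusted p = 2.72e-05).

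Marker lists of muscle and adipose cells were mixed. Summed linear signals of 10 skeletal muscle markers ranged from 1041 to 1169 in WT, 1081 to 1372 in E and 2669 to 3251 in M, with 2 of the 10 over the brightness filter. Of those 2 Acta1 rose (3.65, adjusted p = 9.42e-08) and Mylpf was not called (-0.03, adjusted p = 0.829). Over all 10, 7 were higher on every M array than on every WT array and 3 overlapped. Of all genes tested 26.5% were higher on every M array. For 6 adipocyte markers, brown fat included, the sums were 668 to 788 in WT, 691 to 785 in E and 7540 to 10948 in M, with 1 of the 6 at 0 on some array. The 3 that were tested rose (Adipoq, Fabp4 and Lpl), beside 25.3% of all genes tested. Cidec and the brown fat marker Ucp1 had lower means in M and overlapped with WT. The part of muscle and adipose cells in the levels of Cox6a2, Cox7a1 and Cox8b was not tested.

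**Figure D3:**
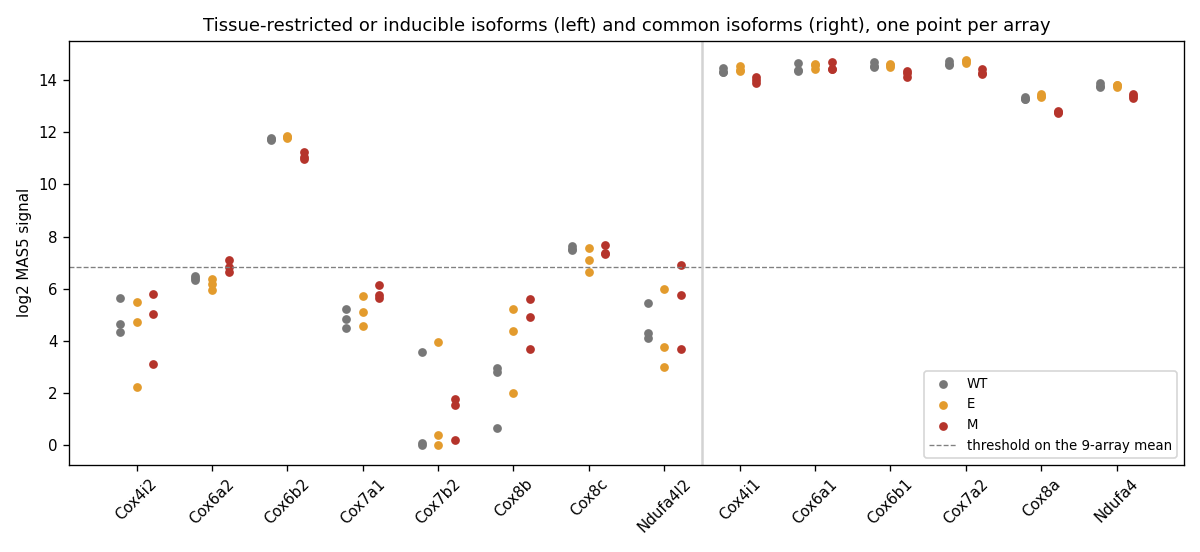
Log2 signal (vertical axis) on each array of isoforms restricted to a tissue or induced by low oxygen (left of the line) and of the common isoforms (right), with points for the WT (grey), E (orange) and M (red) arrays. The dashed line is the brightness threshold of 6.83, which applies to the mean over 9 arrays; signals of different probe sets are not on a common scale, so only the groups of a gene are compared.

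ATP synthase (complex V) fell in 16 of 17 subunits in M against WT (median -0.38) and in 17 of 17 in M against E (median -0.42). Of genes with a mean of 12 or more, 67.9% fell in M against WT and 69.7% in M against E. Their medians were -0.34 and -0.37, so the complex V medians were near those of genes of like brightness. The 5 subunits of the catalytic F1 part all fell, with a median of -0.31, and 11 of 12 subunits of the membrane part and stalks fell, with a median of -0.40. Atp5b, the catalytic beta subunit, read 13.89, 14.03 and 14.03 in WT, 14.13, 14.15 and 14.17 in E and 13.74, 13.76 and 13.57 in M. Atp5b differed by -0.30 (SE 0.07, adjusted p = 0.00205) in M against WT. Atp5a1, the alpha subunit, read 13.72, 13.67 and 13.75 in WT, 13.76, 13.78 and 13.80 in E and 13.33, 13.43 and 13.46 in M. Atp5a1 differed by -0.31 (SE 0.06, adjusted p = 0.000524) in M against WT. Both were lower on every M array than on any WT or E array.

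Subunit c, which forms the rotating ring of the membrane part, is made from 3 genes with the same mature protein and different import sequences. Atp5g1 read 13.40, 13.37 and 13.48 in WT, 13.53, 13.64 and 13.54 in E and 12.74, 12.81 and 12.61 in M. Atp5g1 differed by -0.69 (SE 0.07, adjusted p = 4.82e-06) in M against WT. Atp5g2 read 13.00, 12.91 and 13.04 in WT, 13.12, 13.19 and 13.17 in E and 12.58, 12.58 and 12.58 in M. Atp5g2 differed by -0.40 (SE 0.06, adjusted p = 8.78e-05) in M against WT. Atp5g3 read 14.34, 14.33 and 14.51 in WT, 14.39, 14.51 and 14.49 in E and 14.29, 14.14 and 14.06 in M. Atp5g3 differed by -0.23 (SE 0.08, adjusted p = 0.0199) in M against WT. This call was lost without WT replicate 3 or without M replicate 2. With the mean of its probe sets Atp5g2 differed by -0.11 (adjusted p = 0.839), which is no call. The difference between the falls of the 3 genes was not tested. Without WT replicate 3 the log2 difference of Atp5g3 was -0.17 (adjusted p = 0.0802), and without M replicate 2 it was -0.21 (adjusted p = 0.054).

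Among the small subunits of the membrane part, Atp5l (subunit g), whose promoter is printed above, read 13.39, 13.44 and 13.54 in WT, 13.52, 13.52 and 13.59 in E and 12.92, 12.92 and 12.97 in M. Atp5l differed by -0.52 (SE 0.06, adjusted p = 1.5e-05) in M against WT. Atp5md, a small subunit that holds ATP synthase dimers together, had the largest difference of all 76 members and also the widest spread among those at its brightness. It read 12.80, 13.35 and 13.21 in WT, 13.53, 13.58 and 13.61 in E and 12.08, 11.64 and 12.39 in M. The M arrays were the lowest and the E arrays the highest, and it fell to 47.1% of the WT signal in M (-1.08, SE 0.17, adjusted p = 0.000215) and by more against E (-1.54, SE 0.17, adjusted p = 1.36e-05). The one subunit not called in M against WT was Atp5j2, named after its values were seen, at a mean of 13.89 in M and 14.10 in WT (-0.21, SE 0.11, adjusted p = 0.106). A second probe set of Atp5j2, with a mean of 13.65, gave -0.48 with no overlap.

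The size of the fall varied with the signal. All 55 members with a mean from 12 to 14 fell in M against WT, with a median of -0.51, beside 70.4% of all 1104 genes in that range with a median of -0.39. Of the 13 members with a mean of 14 or more, 10 fell, with a median of -0.23, beside 49.7% of 151 genes with a median of -0.19. Complex IV had 7 of these 13 brightest members, complex V had 5 and complex III had 1, and complexes I and II had none. Across the 68 members with a mean of 12 or more the Spearman correlation of signal and log2 difference was 0.64, beside 0.208 over all 1255 genes of that brightness; genes share arrays and scaling, so this is a description. How far the smaller median differences of complexes IV and V follow from the brightness of their probe sets was not tested.

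**Figure D4:**
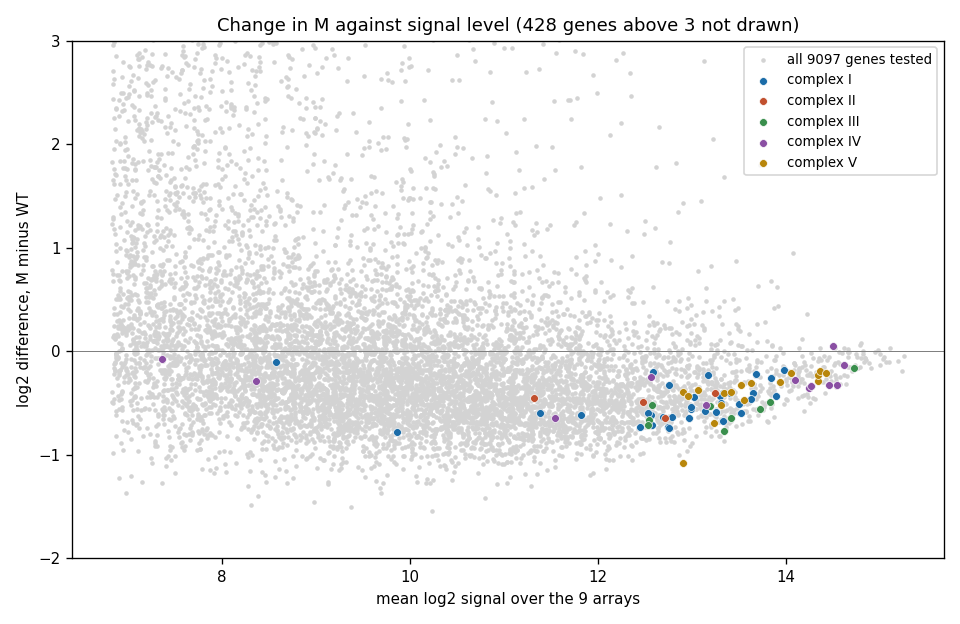
Log2 difference of M minus WT (vertical axis) against the mean log2 signal over 9 arrays (horizontal axis) for the 9097 genes tested (grey) and the 76 tested subunits, coloured by complex; 428 genes with a difference above 3 are not drawn. The subunits with a mean of 14 or more lie nearer to 0 (median -0.23) than those from 12 to 14 (median -0.51).

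Other probe sets for the same genes mostly moved the same way. Of the 83 members 49 had more than 1 probe set, and 67 of the other probe sets, for 43 genes, were over the brightness threshold. Among these, 58 had the same sign of difference in M against WT as the probe set used and 9 the opposite sign. One of the 9, for Ndufab1, the mitochondrial acyl carrier protein, had a mean of 10.19 and was 0.54 higher in M than in WT with no overlap. The probe set used read 12.65, 12.68 and 12.46 in M, against 13.15, 13.07 and 13.20 in WT, and fell (-0.54, SE 0.07, adjusted p = 4.05e-05).

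In the early phase the members moved little. Limma called 0 of 76 members in E against WT, beside 2.11% of all genes tested (0.462% higher and 1.65% lower), and the smallest adjusted p was 0.0763, for Sdhd. At an unadjusted p under 0.05 there were 16 members higher and 1 lower, beside 14.1% of all genes tested, 6.36% being higher. Of the 1255 genes with a mean of 12 or more, 120 were higher and 46 lower at that p. The sign of the difference was positive for 64 of 76 members, beside 51.5% of all genes tested. It was positive for 781 of the 1255 genes with a mean of 12 or more. E arrays lay wholly above WT arrays for 35 members, beside 15.0% of all genes tested and 23.3% of those with a mean of 12 or more, and wholly below for 1, beside 14.7%. The median member was 0.09 higher in E, at 106.2% of the WT signal, beside 0.01 for all genes tested and 0.03 for those with a mean of 12 or more. Genes share arrays, so these counts over members are no test.

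By complex, the medians in E against WT were 0.09 for complex I, 0.06 for complex II, 0.13 for complex III, 0.07 for complex IV and 0.09 for complex V. Sdhd, with the arrays given above, was higher by 0.21 (SE 0.05, adjusted p = 0.0763), and Ndufa5 by 0.21 (SE 0.05, adjusted p = 0.0804); neither passed the threshold, though no E array of either overlapped a WT array. Cox7c, the single member lower on all E arrays, read 8.01, 8.05 and 8.26 in E, against 8.80, 8.63 and 8.50 in WT (-0.53, SE 0.15, adjusted p = 0.125). Atp5md read 13.53, 13.58 and 13.61 in E, against 12.80, 13.35 and 13.21 in WT, and the difference of 0.45 (SE 0.17, adjusted p = 0.261) rested on WT arrays that spread widely.

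The count of 0 in E against WT depended on which arrays set the estimate of the spread. Without M replicate 3, whose estimated array weight was 0.14 against 1.037 to 1.751 for the others, 8 members were called higher (Atp5g2, Atp5md, Cox5a, Ndufa5, Ndufb5, Ndufb6, Sdhd and Uqcrfs1) and 1 lower (Cox7c), beside 3.11% and 6.08% of all genes tested. With array weights the counts were again 8 and 1, beside 3.43% and 5.89%, and with the WT and E arrays alone 9 and 1, beside 3.06% and 5.25%. The differences themselves stayed small, with Atp5md at 0.45 and the other 7 named as higher between 0.18 and 0.22 without M replicate 3.

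The size of the fall in M moved with the scaling of the arrays. Centring each array on its median moved the median of all genes tested to -0.82 and that of the members to -1.08 in M against WT, and scaling on the spike-ins moved them to -1.20 and -1.46. In both, 76 of 76 members were called lower, beside 73.0% and 79.4% of all genes tested, and the members' median minus that of all genes was -0.26, which these 2 scalings cannot change, since they shift all genes of an array by the same amount. Under quantile normalization 69 members were called lower, beside 50.8% of all genes tested, with a median of -0.35 for the members and -0.28 for all genes. Relative to the median of all genes tested, complexes I, II and III then stood at -0.15, -0.07 and -0.16, while complexes IV and V stood at 0.02 and 0.04, so that for these 2 complexes the direction relative to all genes turned.

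The rest of the mitochondrial energy pathway is set beside the subunits by lists drawn up from general knowledge. For comparison with each list, 43.5% of all genes tested fell and 25.3% rose in M against WT, with a median of -0.19. Of 40 tested assembly factors, which help build the complexes, 36 fell and 0 rose in M against WT, with a median of -0.63. Ndufaf3, a complex I assembly factor, averaged 9.81 ± 0.06 in M, against 10.69 ± 0.03 in WT (SD, n = 3 each), a log2 difference of -0.88 (adjusted p = 1.18e-06). Cox11, a copper chaperone of complex IV, averaged 10.81 ± 0.08 in M, against 11.54 ± 0.06 in WT (-0.73, adjusted p = 5.74e-06). Of 76 mitochondrial ribosomal protein genes, whose ribosomes make the subunits coded in mitochondrial DNA, 74 fell and 1 rose, with a median of -0.72. Mrpl52 averaged 12.72 ± 0.01 in M, against 13.53 ± 0.06 in WT (-0.81, adjusted p = 3.16e-07). Mrpl18 averaged 12.11 ± 0.06 in M, against 12.99 ± 0.05 in WT (-0.88, adjusted p = 3.19e-07).

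All 12 tested TCA cycle genes fell in M against WT, with a median of -0.50, among them Fh1, fumarase (-0.53, adjusted p = 1.02e-05), and Idh3g, a subunit of isocitrate dehydrogenase (-0.55, adjusted p = 1.22e-05). Of 12 genes of cytochrome c and ubiquinone synthesis 9 fell and 1 rose, with a median of -0.53. Coq9 (-0.83, adjusted p = 2.23e-06) and Coq5 (-0.92, adjusted p = 8.92e-06), both needed to make ubiquinone, fell. Coq10b, a ubiquinone-binding protein named after its values were seen, rose (0.68, adjusted p = 5.59e-05). Of 7 carriers and regulators of ATP output 5 fell and 1 rose, with a median of -0.24. Of genes with a mean of 12 or more 67.9% fell, with a median of -0.34. The outer membrane channels Vdac3 (-0.32, adjusted p = 0.00107) and Vdac1 (-0.30, adjusted p = 0.00158) fell, and Slc25a4, an ADP/ATP carrier known from heart and muscle and named after its values were seen, rose (0.26, adjusted p = 0.0151). Of 7 mitochondrial antioxidant genes 6 fell, with a median of -0.49, including Sod2, the manganese superoxide dismutase (-0.49, adjusted p = 3.59e-05), and Txn2, mitochondrial thioredoxin (-0.74, adjusted p = 9.88e-05).

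Of 11 regulators of mitochondrial biogenesis 7 fell and 0 rose in M against WT, with a median of -0.36. Tfb1m, which modifies mitochondrial ribosomal RNA, averaged 10.43 ± 0.12 in M, against 11.41 ± 0.04 in WT (-0.98, adjusted p = 7.24e-07). Tfam, which packages and transcribes mitochondrial DNA, averaged 11.53 ± 0.06 in M, against 12.10 ± 0.10 in WT (-0.57, adjusted p = 2.17e-05). Of the factors whose motif cores are marked above, Nrf1 (-0.65, adjusted p = 0.0204) and Gabpa (-0.33, adjusted p = 0.00534), named for those motifs after their values were seen, also fell, as did Yy1 (-0.27, adjusted p = 0.00548). Gabpb1, the partner of Gabpa, was not called (-0.18, adjusted p = 0.317). In E against WT 0 genes of any of these lists were called by limma. At an unadjusted p under 0.05, which 14.1% of all genes tested had, there were 17 of 76 mitochondrial ribosomal genes and 3 of 40 assembly factors. The same count was 1 of 12 electron carriers, 1 of 7 ATP output genes, 1 of 11 biogenesis regulators, 1 of 7 antioxidant and 0 of 12 TCA cycle genes. The count of 0 called depended on the arrays used. Without M replicate 3, 9 of 76 mitochondrial ribosomal genes, 1 assembly factor (Coa7) and 1 ATP output gene (Slc25a4) were called higher. The antioxidant gene Txnrd2 was then called lower. Of all genes tested 3.11% were called higher and 6.08% lower without that array.

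**Figure D5:**
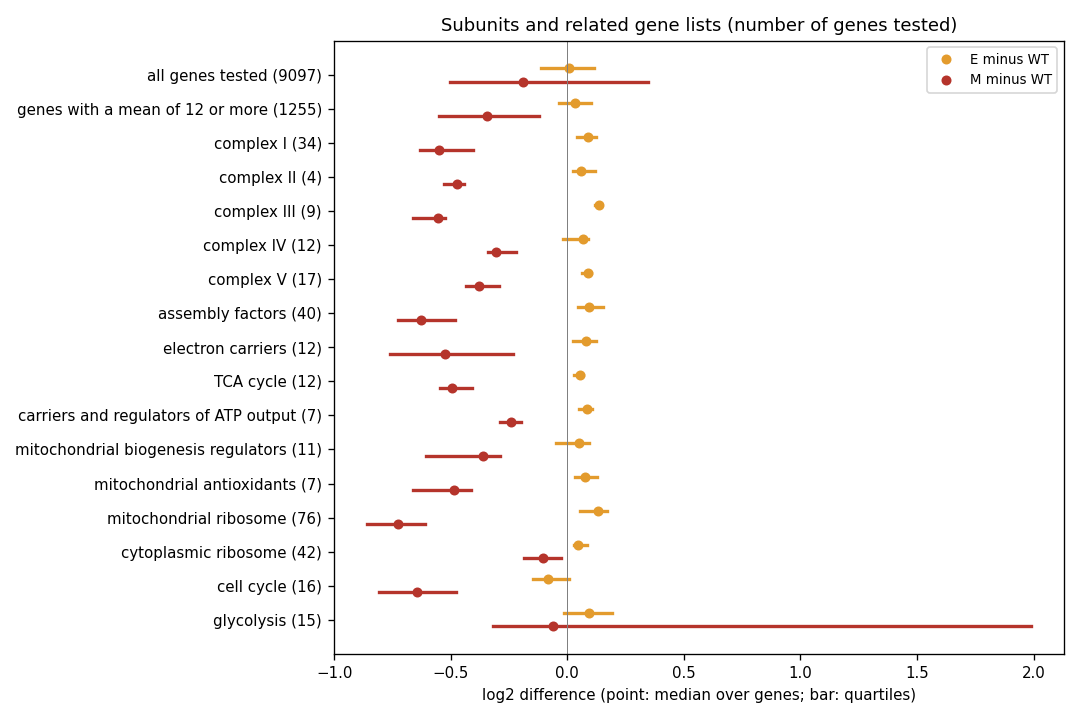
Median log2 difference (points) and quartiles (bars) over the tested genes of each complex and related list, in E minus WT (orange) and M minus WT (red), with the number of genes tested in brackets. Medians in M lie below that of all genes tested (-0.19) for each complex and for the lists of mitochondrial genes, with mitochondrial ribosomal proteins at -0.72, and above it for the cytoplasmic ribosome (-0.11) and glycolysis (-0.06). Genes with a mean of 12 or more have a median of -0.34 in M. Complex IV (-0.31) and the carriers and regulators of ATP output (-0.24) lie above that.

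Genes of cell division moved with the subunits in M. Of 16 cell cycle genes 14 fell in M against WT (median -0.65), beside 43.5% of all genes tested (median -0.19). Many of the 16 were bright, and 67.9% of genes with a mean of 12 or more fell, with a median of -0.34. Summed linear signals of the cell cycle genes ranged from 155212 to 169025 in WT, 152742 to 157196 in E and 92838 to 133424 in M. In M against WT 13 of 13 tested mesenchymal, 11 of 11 granulocyte and 8 of 8 chondrocyte markers rose, beside 25.3% of all genes tested. Chondrocyte signals summed ranged from 22453 to 26477 in WT, 12974 to 13539 in E and 89217 to 97254 in M. Of 10 tested erythroid markers 4 fell (40%, beside 43.5% of all genes tested) and 0 rose. Without M replicate 3 the same 4 fell (Ank1, Epor, Gata1 and Klf1) and 3 rose (Alas2, Epb42 and Slc4a1), and of the cell cycle genes 12 fell and 1 rose (Mki67), with a median of -0.44. No marker of these 4 lists was at 0 on any array, and the part of such shifts in the makeup of the sorted cells in the fall of the subunits was not tested.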

How the data were processed

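RNA of sorted marrow stromal cells from 3 WT, 3 E and 3 M samples was measured on 9 arrays after 3' labelling with biotin, per the labels' protocols. The authors deposited log2 values, which the submitters' processing notes name as MAS5, with no version given in the sources used here. On the linear scale, the mean after trimming 2% of probe sets at either end was 500 on all arrays, so values are relative to the bulk of each array. The number of arrays limits the precision.

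Values were used as deposited. Of 45101 probe sets 34958 had a single symbol in the array's annotation, and of these the brightest by mean over the 9 arrays stood for its gene, for 18194 genes. Genes not below the median mean, 9097 in number, were fitted with limma 3.58.1 in R 4.3.3 (a mean per group over all 9 arrays, eBayes with an intensity trend, 6 residual degrees of freedom), with Benjamini-Hochberg adjustment over all of them. The fitting step was tested on simulated data with known changes. Spike-ins were compared by an exact permutation test.

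Members, gene lists and tests were chosen with earlier results of these data known. Members named were a fixed set of catalytic, core and isoform subunits, per complex the 3 with the smallest F test p, and per comparison the 3 largest rises and falls called. Related lists other than cell cycle gave the 2 genes with the smallest p in M against WT. Other genes are said to be named after their values were seen. The lists of related genes and markers came from general knowledge. Promoters are those of RefSeq.

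Alternatives were pseudocounts of 1 and 64 on the linear scale, no brightness filter, a filter at the 0.75 quantile of gene means, quantile normalization, centring on the array median, and scaling on the spike-ins. Further ones were no trend, robust estimation, weights per array, averaging all probe sets of a gene, only the 2 groups compared, the replicate number as a block, and leaving out each array. Arrays with the same replicate number did not deviate together (correlations of -0.098 to 0.084), so the numbers do not pair the samples.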

Additional observations from a re-analysis of the deposited data

How the results depend on the processing

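The fall of the subunits in M kept its direction under all alternatives run: with 1 array left out, 65 to 73 members were called lower in M against WT (medians -0.48 to -0.42) and 69 to 73 in M against E (medians -0.58 to -0.52). Under the other alternatives these counts were 61 to 76 and 65 to 76, the lowest with the mean of a gene's probe sets. Of all 9097 genes tested, 5721 to 6334 were called in M against WT with 1 array left out, and 5782 to 6462 in M against E. With the mean of probe sets 5063 and 5158 were called. These counts over all genes take both directions. The medians themselves moved with the scaling. In M against WT the members' median was -0.35 under quantile normalization, -1.08 with median centring and -1.46 with spike-in scaling, and in M against E it was -0.38, -1.32 and -1.58. In E against WT, median centring gave a median of 0.22 and 3 members called higher (Cox5a, Ndufa5 and Sdhd). With it the median of all genes tested was 0.14, and 234 of 9097 were called. Array weights gave 8 higher and 1 lower, the WT and E arrays alone 9 higher and 1 lower, and leaving out 1 array gave 0 to 8 higher, 0 to 1 lower and medians of 0.07 to 0.12. Of all 9097 genes tested these settings called 848, 756 and 98 to 836, in either direction. Without the brightness filter 1 member was called higher in M against WT (Cox8b, fitted at 2.59 against WT signals of 0.66, 2.80 and 2.98, too low for a size to be read from it) and 1 in M against E (Cox6a2, 0.70). Of all 18194 genes 7880 and 8274 were then called, in either direction. In M against E, array weights called 1 member higher (Cox7c), and leaving out 1 array called 0 to 1 higher (Cox8c without E replicate 2, Cox7c without M replicate 3), while in M against WT 0 were called higher with any array left out. The difference of Cox6a1 in M against WT turned to -0.57 (adjusted p = 0.000105) with median centring and -0.96 (adjusted p = 3.6e-09) with spike-in scaling, both of which lower all M values. With the mean of a gene's probe sets, which adds dim ones, some calls were lost in M against WT: Atp5g2 (-0.11, adjusted p = 0.839), Sdha (-0.42, adjusted p = 0.179) and Uqcr10 (-0.37, adjusted p = 0.239). In M against E the calls of Atp5g2 (-0.12, adjusted p = 0.828) and Sdha (-0.48, adjusted p = 0.125) were lost. The differences of Sdha stayed near those reported (-0.49 and -0.52). With the replicate block 0 members were called in E against WT, 67 lower in M against WT and 71 lower in M against E. Of all 9097 genes tested 153, 6100 and 6248 were called in these comparisons, in either direction. The cause of these shifts was not tested. Signals are relative to each array's mean, 7 members were below the brightness filter, and no array measures protein or respiration.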

Other observations

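Glycolysis genes did not move as a group with the subunits. Of 15 tested genes 7 rose and 6 fell in M against WT (median -0.06), beside 25.3% and 43.5% of all genes tested. Slc2a1, the glucose transporter GLUT1, averaged 11.85 ± 0.22 in M, against 8.58 ± 0.07 in WT (SD, n = 3 each), a log2 difference of 3.26 (SE 0.13, adjusted p = 5.83e-09). Hk2, a hexokinase, averaged 11.26 ± 0.03 in M, against 8.52 ± 0.16 in WT, a log2 difference of 2.73 (SE 0.11, adjusted p = 6.35e-09). In E against WT Slc2a1 fell by 1.02 on the log2 scale (adjusted p = 0.00169) and Hk2 fell by 0.58 (adjusted p = 0.0222). Aldoa (0.35, adjusted p = 0.0244), Ldha (0.30, adjusted p = 0.0266) and Tpi1 (0.27, adjusted p = 0.0318), named after their values were seen, rose in that comparison. Of all genes tested 0.462% rose and 1.65% fell in E against WT. In M against E, 6 glycolysis genes rose and 8 fell, beside 26.1% and 43.9% of all genes tested.

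Of 42 tested genes with symbols of cytoplasmic ribosomal proteins 12 fell and 1 rose in M against WT, with a median of -0.11. Beside this, 43.5% of all genes tested fell and 25.3% rose. In M against E 20 fell and 1 rose, with a median of -0.16. Of all genes tested 43.9% fell and 26.1% rose in M against E, with a median of -0.19. The symbols took in Rps19bp1, a binding protein of Rps19 and no ribosomal protein. Rps19bp1 fell in M against WT (-0.66, adjusted p = 1.91e-05), as did Rpl14 (-0.63, adjusted p = 5.43e-05). Many genes of the list are among the brightest of the arrays, as are the members of complex IV with a mean of 14 or more. Whether the list differs from ribosomal proteins of mitochondria was not tested. In E against WT limma called 0 of 42, beside 2.11% of all genes tested. At an unadjusted p under 0.05 there was 1 of 42, beside 14.1% of all genes tested. Without M replicate 3 limma called 1 higher (Rpl37), beside 3.11% of all genes tested.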
